A study of Mus musculus with 7 samples.

Results

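C-type lectin receptors of myeloid cells were examined in the microglia of old and young male mice after stroke. The 10 genes Clec7a, Clec4a1, Clec4a2, Clec4a3, Clec4d, Clec4e, Clec4n, Clec5a, Clec12a and Clec2d were chosen by symbol, and each has 1 row among the 50686 genes quantified in every library. Microglia were sorted by FACS on CD11b, CD45 and Bodipy, a dye that stains neutral lipids, so that the cells compared in both ages were those rich in lipid droplets. All 7 mice were C57BL/6 males that had undergone a 45 min occlusion of the middle cerebral artery, and cells were obtained 4 days later. The Old group had 3 mice of 21 to 22 months (2posI, 3posI and 4posI) and the Young group 4 mice of 3 to 4 months (14C, 18C, 23C and 29C). Each library was made from 1 mouse, and all libraries shared the ischemia and the selection for lipid. No unoperated mouse is in the comparison, so the values below describe a difference with age among ischemic animals and not a response to ischemia.

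C-type lectin receptors are transmembrane proteins that bind glycans, lipids or proteins of microbes and of dying cells through a lectin-like domain. Activating members signal through the kinase Syk, either from a tyrosine motif in their own tail or through the adaptors FcRγ (Fcer1g) and DAP12 (Tyrobp), and Syk engages the adaptor Card9 and NF-κB. Inhibitory members carry a motif that recruits phosphatases. Clec7a encodes Dectin-1, the receptor for β-glucan and a gene that reactive microglia are known to induce. Clec4n (Dectin-2), Clec4d (MCL) and Clec4e (Mincle) encode receptors that pair with FcRγ, and Clec5a encodes one that pairs with DAP12. Clec4a2 (Dcir1) and Clec12a (MICL) encode inhibitory receptors, Clec4a1 and Clec4a3 are close relatives of Clec4a2, and Clec2d encodes a ligand of the inhibitory receptor Nkrp1b (Klrb1b) of natural killer cells.

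All 10 genes lie on chromosome 6 of GRCm38. In GENCODE vM21, 6 of them sit in a stretch of 368023 bases (chr6:122921848-123289870) in the order Clec4a1, Clec4a3, Clec4a2, Clec4n, Clec4d and Clec4e. Clec4d and Clec4e are 6523 bases apart and are transcribed towards each other. Clec2d, Clec12a and Clec7a share a second stretch of 292165 bases (chr6:129180615-129472779), and Clec5a stands alone at chr6:40574894-40585821. The only annotated gene that overlaps a member is Gm44132, a processed pseudogene inside Clec4a2. It lies on the same strand and had 0 to 1 counts per library. The libraries do not record the strand, and no gene of the opposite strand overlaps a member. Reads of Clec4a2 and Clec2d were in part divided with other genes, as their expected counts were not whole numbers (within 0.001) in 7 and 6 of the 7 libraries, so the levels of both are less certain than those of the other 8, whose counts were all whole.

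The 250 bases before the RefSeq start were read for 9 of the 10 genes (RefSeq, GRCm38.p6). Those of Clec7a (chr6:129472780-129473029, minus strand), Clec4d (chr6:123261857-123262106, plus strand) and Clec4e (chr6:123289872-123290121, minus strand) are shown, because Clec7a gave the most even difference between the ages and the neighbours Clec4d and Clec4e the most uneven. Capitals mark letters of 4 motifs searched on both strands, GAGGAA (core of PU.1 sites), TTGCNNAA (C/EBP), TGANTCA (AP-1) and TATAAA (a box of core promoters).
Clec7a: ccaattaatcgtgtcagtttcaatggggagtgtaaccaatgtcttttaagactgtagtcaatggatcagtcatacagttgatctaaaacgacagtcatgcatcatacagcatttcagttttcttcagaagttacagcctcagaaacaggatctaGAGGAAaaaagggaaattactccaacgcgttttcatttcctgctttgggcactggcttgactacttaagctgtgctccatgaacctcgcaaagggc
Clec4d: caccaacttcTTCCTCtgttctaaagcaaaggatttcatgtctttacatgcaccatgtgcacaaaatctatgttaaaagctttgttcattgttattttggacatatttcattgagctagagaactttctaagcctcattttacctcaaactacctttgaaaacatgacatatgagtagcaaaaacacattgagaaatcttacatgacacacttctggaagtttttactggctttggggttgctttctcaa
Clec4e: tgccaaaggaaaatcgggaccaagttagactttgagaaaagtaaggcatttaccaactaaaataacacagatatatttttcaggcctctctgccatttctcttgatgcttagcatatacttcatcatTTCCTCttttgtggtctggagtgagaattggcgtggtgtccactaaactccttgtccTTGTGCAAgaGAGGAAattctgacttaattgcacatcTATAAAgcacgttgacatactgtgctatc
The PU.1 core was found in 6 of the 9 windows, Clec7a, Clec4d and Clec4e included, against 23.3% of 32851 RefSeq windows of the same length. Clec4e also held TTGCNNAA at base -66 and TATAAA at base -29 from its start, and TTGCNNAA was otherwise found in Clec12a only (2 of 9, against 9.56% of all windows). TATAAA was found in 3 of 9 windows (12.4% of all) and TGANTCA in 1 of 9, that of Clec12a (6.75% of all). The windows of Clec4a2 (chr6:123122440-123122689) and Clec12a (chr6:129349994-129350243) lie inside the genes of GENCODE vM21, which start at chr6:123106428 and chr6:129342691. Their matches are therefore not before the vM21 start. No marked motif overlapped another in the 3 windows shown. These matches describe the sequences and were not tested for binding.

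Total expected counts were 36574083 to 53002386 per library, and the 10 genes had between 22.08 (Clec2d in 23C) and 10308 counts (Clec7a in 4posI), so all of them passed the filter on low counts. Before any comparison, old mouse 3posI has to be set apart. The 12 markers of microglia, such as P2ry12 and Tmem119, summed to 7556 TPM in 3posI, against 15630 to 23110 TPM in the other 6 libraries. The 10 markers of monocytes, such as Ly6c2, Ccr2 and Plac8, summed to 2402 TPM in 3posI and to 89.7 to 251 TPM in the others. Markers of border-associated macrophages were also highest there, at 1779 TPM against 166 to 551 TPM. Those of disease-associated microglia were highest there too, at 76110 TPM, but close to young 23C at 73160 TPM. The other libraries ranged down to 25040 TPM in 4posI. Microglia transcripts were present in every library, since no microglia marker was listed at 0 in any of them and Tmem119 reached 498 to 1520 TPM. No marker of monocytes or border-associated macrophages was listed at 0 either, so this does not settle the make-up of 3posI. In bulk libraries, more cells of one type and more RNA per cell cannot be told apart. The 10 genes, and the genes named from other lists whose value depends on it, are therefore given with and without 3posI.

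Compared per transcript length, in TPM, Clec7a and Clec5a were the most abundant of the 10 genes in young mice (114 ± 12.2 and 111 ± 14.4 TPM, mean ± SD, n = 4), and their ranges overlapped. Clec4a3 followed with 35.6 ± 14.2 TPM and did not overlap Clec5a. From Clec4a3 down through Clec4a2 (21.0 TPM), Clec4d (11.02 TPM), Clec12a (10.7 TPM), Clec4n (9.94 TPM), Clec4e (5.40 TPM), Clec4a1 (5.17 TPM) and Clec2d (3.82 TPM), each gene overlapped the next. In old mice Clec7a (144 ± 18.8 TPM, n = 3) and Clec5a (119 ± 30.4 TPM) were again first by the mean, and Clec4d came next with 101 ± 134 TPM, an SD larger than its mean. Among neighbours in the old order, only Clec4a1 (15.5 TPM) and Clec2d (2.49 TPM) did not overlap.

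The 10 genes together reached 360, 352, 286 and 315 TPM in young 14C, 18C, 23C and 29C, and 454, 798 and 432 TPM in old 2posI, 3posI and 4posI. All old libraries lay above all young ones. Clec7a and Clec5a made up 58.6% to 80.0% of the sum in the 4 young libraries, 61.8% in 2posI and 68.2% in 4posI, but 26.5% in 3posI. In 3posI the other 8 genes summed to 586 TPM, against 62.9 to 149 TPM in young mice and 173 and 137 TPM in 2posI and 4posI. Clec4d alone was 32.0% of the sum in 3posI and 1.04% to 5.90% in the other libraries.

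**Figure D1:**
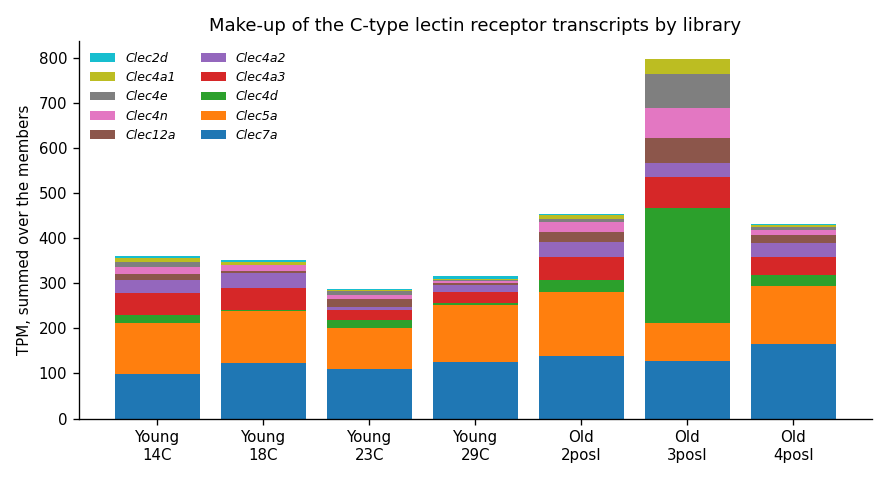
Stacked bars of the TPM of the 10 C-type lectin receptor genes in each library, Young on the left and Old on the right, on a linear axis from 0. The bars of the young mice end between 286 and 360 TPM, and that of old mouse 3posI at 798 TPM, with Clec4d (255.6 TPM) as its largest segment.

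Old and young mice were then compared with edgeR's quasi-likelihood test over 17559 genes, with Benjamini-Hochberg adjustment. Of the 10 genes, 9 had a higher fitted value in old mice, as did 48.8% of all genes tested. An adjusted p of 0.05 was passed by 0 of the 10, against 0.803% of all genes tested. An unadjusted p under 0.05 was found for 6 (Clec7a, Clec12a, Clec4d, Clec4n, Clec4a1 and Clec4e), a mark that 18.9% of all genes also reached. The median log2 fold change was 1.21 over the 10 genes and -0.01 over all genes tested. In 4 genes (Clec7a, Clec4a2, Clec4d and Clec12a) the lowest old library exceeded the highest young one in CPM (TMM-scaled counts relative to library size), and this was so for 8.67% of all genes. The opposite order was seen in none of the 10 and in 9.07% of all genes. The limma-voom test called 0 of the 10, with or without sample quality weights. DESeq2, which called 9.07% of the 15431 genes it gave an adjusted p, called 3, Clec7a (adjusted p = 0.00308), Clec12a (adjusted p = 0.00972) and Clec4a1 (adjusted p = 0.0407), and gave Clec4d and Clec4e no p. Without 3posI, edgeR called 0 and the number with an unadjusted p under 0.05 fell to 2, Clec7a and Clec12a. The share of all genes under that mark was not counted in this fit. The median was then 0.67, and the same 4 genes kept their ages apart, against 13.8% of the genes then tested.

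**Figure D2:**
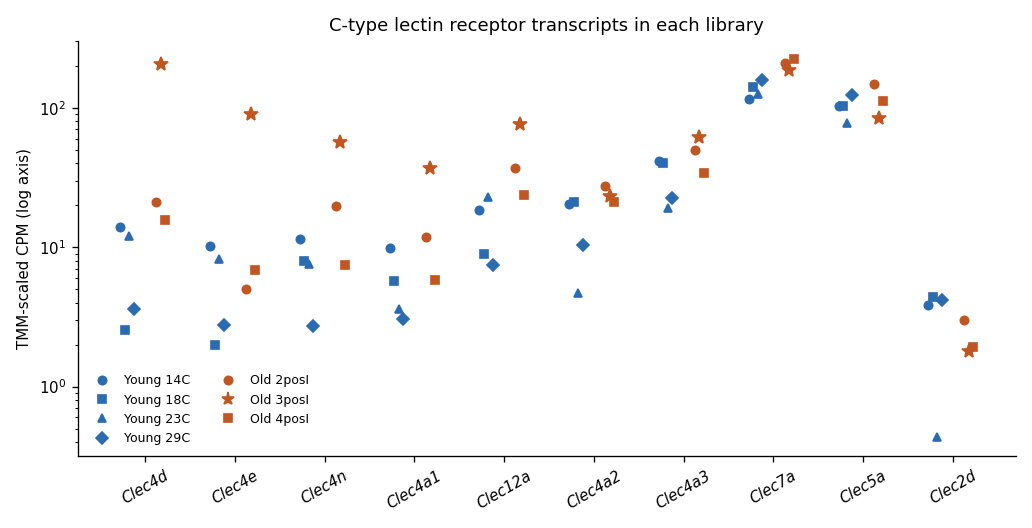
TMM-scaled CPM of each gene in each library on a log axis, Young in blue and Old in orange, with the genes ordered by their log2 fold change and old mouse 3posI drawn as a star. The star lies far above the other libraries in Clec4d, Clec4e, Clec4n and Clec4a1, and inside the range of the other old mice or below it in Clec4a2, Clec7a and Clec5a.

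Clec7a, the gene of Dectin-1, showed the smallest error relative to its difference. It had 116, 140, 125 and 159 CPM in young 14C, 18C, 23C and 29C, and 211, 188 and 223 CPM in old 2posI, 3posI and 4posI. The ages did not overlap, and 3posI was the lowest of the old libraries. The log2 fold change was 0.61 (SE 0.14), with an adjusted p of 0.0847 in edgeR. Without 3posI it was 0.68 (SE 0.15, edgeR adjusted p = 0.0835). The genes most like Clec7a over the 7 libraries, among 8146 with a mean of at least 10 CPM, were H2-T23, Aebp2 and Ski. Their mean absolute differences from it were 0.058, 0.071 and 0.074 in centred log2 CPM.

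Per length, the difference in Clec7a was smaller. Its TPM was 99.5, 124, 110 and 125 in young mice in the order above, and 139, 128 and 164 in old mice. The ages still did not overlap, but 3posI exceeded 29C by little (127.5 against 125.3 TPM). On log2(TPM + 1) the fold change was 0.32 (limma adjusted p = 0.235), and with the effective length of each library as an offset it was 0.41 (SE 0.14, edgeR adjusted p = 0.171).

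TPM divides a count by the length that RSEM assigned to the transcripts of the gene, and this length also differed. For Clec7a its mean was 1677, 1687, 1663 and 1711 bases in young 14C, 18C, 23C and 29C, and 1902, 1920 and 1981 bases in old 2posI, 3posI and 4posI. The old libraries were all longer, with no overlap, and 3posI lay between the other old mice. GENCODE vM21 lists transcripts of 2277 and 2272 bases and of 707 and 655 bases, the last with a retained intron. If those 4 lengths made up the mean, the long pair held 60.9% to 65.3% of the Clec7a transcripts in young mice and 76.1% to 82.0% in old mice. The files give 1 length per gene and no level per transcript, and read coverage along Clec7a was not analysed here. Over all genes tested, 11686 varied in this length by more than 1 base, and in 1522 of them (13%) all old libraries were longer than all young ones, with the opposite in 741. The effective length, which also depends on fragment size, gave 1524 and 741. Both counts were made after the length of Clec7a had been seen. Clec7a was the only one of the 10 with this pattern, and Clec4a1 and Clec2d have a single transcript and could not show it.

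**Figure D3:**
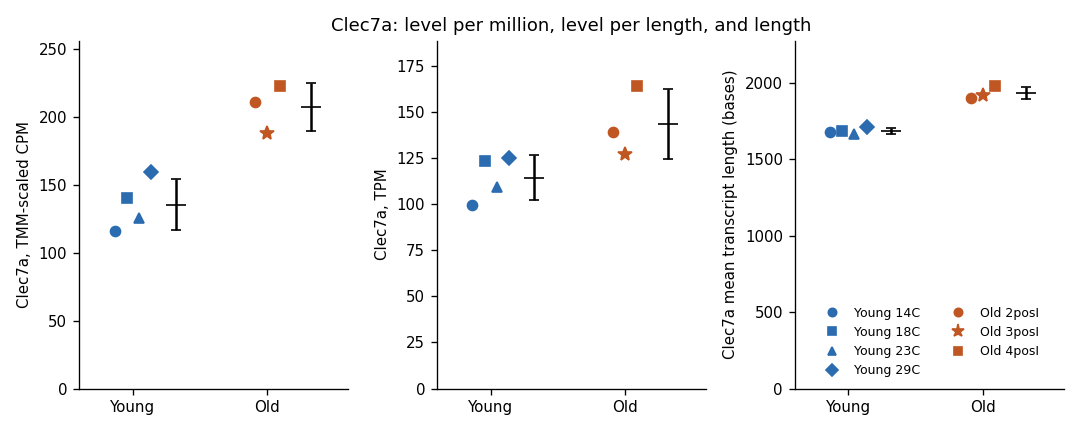
Clec7a in each library as TMM-scaled CPM (left), TPM (middle) and the mean transcript length assigned by RSEM in bases (right), all from 0, with 1 point per mouse and a black bar for the mean ± SD (Young n = 4, Old n = 3). The ages are apart in all 3 panels, most widely in length relative to the SD (1663 to 1711 bases in Young, 1902 to 1981 in Old).

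Among the receptors that pair with FcRγ, the differences were larger but rested mostly on 3posI. Clec4d, the gene of MCL, had 13.9, 2.53, 12.1 and 3.59 CPM in young 14C, 18C, 23C and 29C, and 21.2, 205 and 15.6 CPM in old 2posI, 3posI and 4posI. All old libraries lay above all young ones, and 3posI lay far above the rest. In edgeR the log2 fold change was 3.33 (SE 0.97, edgeR adjusted p = 0.132) and fell to 1.20 (SE 0.61, edgeR adjusted p = 0.348) without 3posI. The genes most like Clec4d were Napsa, Gda and Sirpb1c, with mean absolute differences of 0.163, 0.171 and 0.206 in centred log2 CPM. All 3 had at most 9.03 CPM outside 3posI, so they entered this comparison through that library.

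Clec4e encodes Mincle, which binds mycobacterial glycolipid and a nuclear protein released by dying cells. It had 10.2, 1.99, 8.26 and 2.77 CPM in young mice and 5.01, 90.8 and 6.82 CPM in old mice, in the same order. Outside 3posI the old libraries fell inside the young range. The log2 fold change of 2.56 (SE 1.01, edgeR adjusted p = 0.22) was 0.03 (SE 0.61, edgeR adjusted p = 0.987) without 3posI. Its neighbour Clec4d kept a positive value in the same fit, but the difference between the genes was not tested.

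Clec4n, the gene of Dectin-2, had 11.4, 8.03, 7.57 and 2.71 CPM in young mice and 19.7, 57.1 and 7.51 CPM in old mice. Old 4posI was within the young range, so the ages overlapped. Its difference in the fit was 1.92 on the log2 scale (SE 0.65, edgeR adjusted p = 0.171), and 0.87 (SE 0.52, edgeR adjusted p = 0.421) without 3posI. Clec4n and Clec4a1, which lie in the same stretch of chromosome 6, were each the nearest gene to the other of the genes compared (0.262 in centred log2 CPM). This pair was named after its values were seen. Both were highest in 3posI and reached a mean of 10 CPM only with that library, so they entered the comparison through it.

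Clec5a, whose receptor pairs with DAP12, had 103, 103, 78.4 and 124 CPM in young mice and 148, 84.1 and 112 CPM in old mice. The ages overlapped widely, and 3posI was the lowest old library, as in Clec7a. The fitted difference was 0.17 on the log2 scale (SE 0.21, edgeR adjusted p = 0.714). Its sign rested on 2posI, since without that library it was -0.06 (edgeR adjusted p = 0.917).

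Of the inhibitory receptors, Clec12a (MICL, which binds uric acid crystals of dead cells) had 18.4, 8.99, 22.9 and 7.51 CPM in young mice and 36.8, 76.6 and 23.8 CPM in old mice. All old libraries were higher, although 4posI exceeded young 23C by less than 1 CPM. For Clec12a the log2 fold change was 1.66 (SE 0.48, edgeR adjusted p = 0.131), and 1.07 (SE 0.42, edgeR adjusted p = 0.246) without 3posI. Clec4a2 (Dcir1) had 20.3, 21.1, 4.69 and 10.45 CPM in young mice and 27.4, 23.2 and 21.2 CPM in old mice. Here 3posI was not the highest, and the ages were kept apart by 4posI at 21.16 against 18C at 21.14 CPM. In TPM they overlapped, with 32.6 in 18C and 31.3 in 4posI. The log2 fold change of Clec4a2 was 0.76 (SE 0.44, edgeR adjusted p = 0.386), 0.78 (edgeR adjusted p = 0.452) without 3posI and 0.47 without young 23C, its lowest library.

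The relatives Clec4a1 and Clec4a3 overlapped between the ages. Clec4a1 had 9.94, 5.68, 3.63 and 3.08 CPM in young mice and 11.9, 37.2 and 5.85 CPM in old mice. Old exceeded young by 1.71 on the log2 scale (SE 0.62, edgeR adjusted p = 0.19). Without 3posI it was 0.67 (SE 0.48, edgeR adjusted p = 0.502). Clec4a3, the most abundant of the Clec4a genes in TPM, had 41.5, 40.5, 19.2 and 22.7 CPM in young mice and 50.2, 61.7 and 34.1 CPM in old mice. The ages differed by 0.65 on the log2 scale (SE 0.31, edgeR adjusted p = 0.301), and 0.45 (SE 0.33, edgeR adjusted p = 0.516) without 3posI.

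Clec2d, the ligand of Nkrp1b, was the only gene of the 10 with a lower fitted value in old mice. It had 3.88, 4.39, 0.43 and 4.15 CPM in young mice and 3.01, 1.79 and 1.92 CPM in old mice. Young 23C was the lowest of all libraries and the other young mice were the highest, so the ages overlapped. For Clec2d the log2 fold change was -0.52 (SE 0.65, edgeR adjusted p = 0.704), and -0.38 (edgeR adjusted p = 0.828) without 3posI. Its receptor gene Klrb1b was low throughout, with 0.18 to 0.65 CPM in young mice and 1.04 to 4.27 CPM in old mice. All old libraries were higher in Klrb1b (log2 fold change 2.65, SE 0.58), without passing the threshold (edgeR adjusted p = 0.0752), and the value was 2.12 (edgeR adjusted p = 0.135) without 3posI. Of the 10 lymphocyte and natural killer cell markers 9 were tested, with a median log2 fold change of 1.67. Higher in every old library were 2 of them, against 8.67% of all genes tested. The 2 were Cd2 (at most 0.16 TPM in young and 0.23 to 1.21 TPM in old mice) and Nkg7 (0.07 to 0.26 and 0.35 to 2.43 TPM). The list summed to 17.6 to 24.9 TPM in young and 13.2 to 29.6 TPM in old mice, of which Cd79b was 16.9 to 24.1 and 9.03 to 25.0 TPM. The part of these cells in Klrb1b was not tested.

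**Figure D4:**
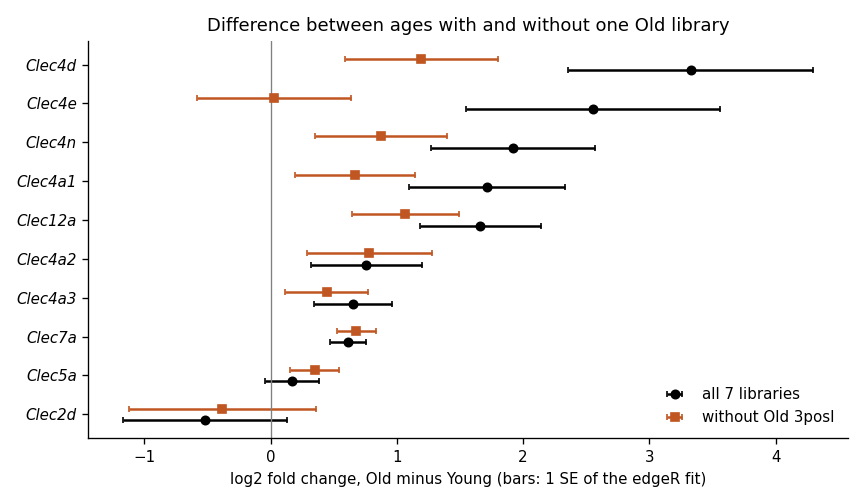
Log2 fold change (Old minus Young) of the 10 genes from the edgeR fit with all 7 libraries (black circles) and without old mouse 3posI (orange squares), with bars of 1 SE. Clec4e moves from 2.56 to 0.03 and Clec4d from 3.33 to 1.20, whereas Clec7a stays at 0.61 and 0.68.

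Several of these genes are also transcribed by monocytes, dendritic cells and neutrophils, so the markers of those cells were read in the same libraries. The study describes its microglia as CD11b+ cells with low CD45, a level below that of most infiltrating leukocytes. For the Bodipy sort its methods name CD11b and CD45 without the level of CD45. In old 2posI and 4posI the monocyte markers summed to 203 TPM each, inside the young range of 89.7 to 251 TPM. Of the 10 monocyte markers, 4 were higher in every old library than in every young one, and 1 was lower. Over all genes tested these shares were 8.67% and 9.07%. Ly6c2, one of the 4, had 2.06 to 5.96 TPM in young mice and 19.6, 27.7 and 320 TPM in old mice. Without 3posI, 4 of the 10 were higher in every old library, against 13.8% of the genes then tested. Ly6c2 then passed the threshold (log2 fold change 3.01, edgeR adjusted p = 0.0295), where 159 of 17375 genes passed. Ccr2, which defines inflammatory monocytes, overlapped, with 0.86 to 8.24 TPM in young mice and 5.37, 87.3 and 4.15 TPM in 2posI, 3posI and 4posI. Clec7a and Clec5a were lowest among the old libraries in 3posI, where the summed monocyte markers were highest. The part of monocytes in the levels of these 2 genes, and of Clec4d, Clec4e, Clec4n, Clec4a1 and Clec12a, was not tested.

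The 8 dendritic cell markers were low, at 3.45 to 5.24 TPM summed in young mice and 10.1 to 42.0 TPM in old mice, and did not overlap between the ages. Cd209a, one of them, had 0.08 to 1.49 TPM in young mice and 5.35 to 6.67 TPM in old mice, and Ccr7 was likewise higher in every old library. Of the 8 markers 5 had a higher and 3 a lower fitted value in old mice, the last being Zbtb46 (-0.81, edgeR adjusted p = 0.261), Xcr1 (-0.48) and Itgae (-0.17). The neutrophil markers overlapped, at 97.2 to 462 TPM in young mice and 196 to 396 TPM in old mice, and Ly6g, which defines neutrophils, was listed at 0 in 14C, 18C and 23C and at no more than 0.93 TPM elsewhere. Their part in the levels of the Clec genes was not tested.

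Young mice also differed among themselves. In Clec4d, Clec4e and Clec12a, 14C and 23C lay above 18C and 29C, for example at 13.9 and 12.1 against 2.53 and 3.59 CPM in Clec4d. Clec4a1, Clec4a2, Clec4a3 and Clec4n were split otherwise, with 14C and 18C above 23C and 29C. In Clec4a3 the values were 41.5 and 40.5 against 19.2 and 22.7 CPM. Both splits were named after the values were seen. The split of Clec4d was also seen in the summed markers of border-associated macrophages (545 and 457 against 231 and 166 TPM). Monocyte markers (251 and 135 against 89.7 and 127 TPM) and those of disease-associated microglia (54540 and 73160 against 29500 and 47170 TPM) had it too. The microglia markers gave the opposite split, with 17900 and 15630 against 23110 and 19390 TPM. The labels give no batch for these mice, and the part of those cells in the levels was not tested.

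**Figure D5:**
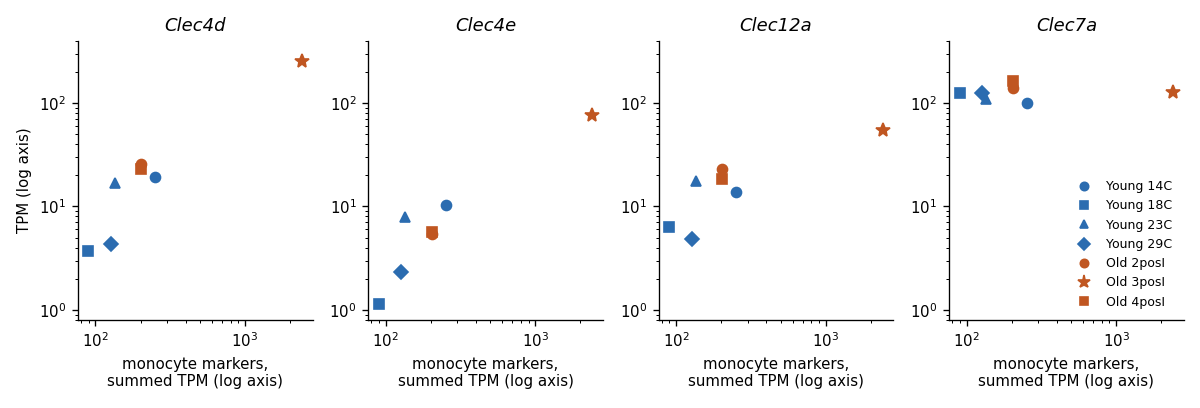
TPM of Clec4d, Clec4e, Clec12a and Clec7a (vertical, log axis) against the summed TPM of the 10 monocyte markers (horizontal, log axis), with 1 point per library, Young in blue, Old in orange and 3posI as a star. The star stands apart at 2402 TPM of monocyte markers in every panel and is the highest point for Clec4d, Clec4e and Clec12a, but not for Clec7a, where 4posI (164 TPM) and 2posI (139 TPM) are higher.

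The genes that act below the receptors were described from lists chosen by function. Over all genes tested, 18.9% had an unadjusted p under 0.05 and 0.803% passed (edgeR). Of the 10 adaptors and proximal kinases, 9 were tested and 0 passed (edgeR, 1 with an unadjusted p under 0.05). Fcer1g, the adaptor of Clec4n, Clec4d and Clec4e, had 3873 to 4618 TPM in young and 4619 to 5627 TPM in old mice (log2 fold change 0.33, edgeR adjusted p = 0.339). In CPM its ages overlapped, with 2167 CPM in young 29C and 2149 CPM in old 4posI. Tyrobp, the adaptor of Clec5a, had 4394 to 5490 TPM in young and 4017 to 4831 TPM in old mice and a log2 fold change of -0.05 (SE 0.17, edgeR adjusted p = 0.903). Both adaptors thus exceeded every receptor in TPM in every library. Syk, the kinase they share, had a log2 fold change of -0.11 (SE 0.17, edgeR adjusted p = 0.777). Without 3posI this value was -0.30 (SE 0.15, edgeR adjusted p = 0.338). Syk had 116.3 CPM in 3posI, while 2posI and 4posI (80.46 and 81.55 CPM) lay below the young range of 86.73 to 113.7 CPM. The Src-family kinase gene Fgr had a log2 fold change of 1.09 (edgeR adjusted p = 0.217), and it was 103 CPM in 3posI against 19.1 to 30.0 CPM in the other libraries, with a value of 0.22 (edgeR adjusted p = 0.56) without it.

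For the inhibitory branch, 0 of 6 phosphatase and adaptor genes passed (edgeR, 1 with an unadjusted p under 0.05, against 18.9% of all genes). That one was Inppl1, which encodes the lipid phosphatase SHIP2, with 43.1 to 64.9 CPM in young and 33.7 to 39.3 CPM in old mice (log2 fold change -0.50, SE 0.16, edgeR adjusted p = 0.163). Ptpn11, which encodes the phosphatase SHP-2, and Dok2 had values of 0.37 (edgeR adjusted p = 0.366) and 0.88 (edgeR adjusted p = 0.291), with overlapping ages. Dok2 was 20.5 CPM in 3posI, and 2posI and 4posI (7.72 and 6.72 CPM) were inside the young range of 4.32 to 8.44 CPM, so that its value was 0.19 (edgeR adjusted p = 0.778) without 3posI.

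Along the Card9 branch to NF-κB, 17 of 18 genes were tested and 0 passed (edgeR). An unadjusted p under 0.05 was found for 8, against 18.9% of all genes. Of the 8, 1 had a higher and 7 had a lower fitted value in old mice. The median log2 fold change was -0.22. Card9 itself had 23.5 to 34.8 CPM in young and 19.96 to 22.46 CPM in old mice, without overlap (log2 fold change -0.45, SE 0.16, edgeR adjusted p = 0.184). Rela, a subunit of NF-κB, had 129 to 150 CPM in young and 93.6 to 110 CPM in old mice (log2 fold change -0.49, SE 0.12, edgeR adjusted p = 0.0886). Relb, another subunit, was also lower in every old library (log2 fold change -0.59, edgeR adjusted p = 0.0979), and Map3k7, the gene of the kinase TAK1, was higher in every old library (0.65, edgeR adjusted p = 0.0669). In Rela old 3posI (101 CPM) lay between the other old libraries.

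In the calcium and NFAT branch, 1 of 16 genes passed (edgeR), against 0.803% of all genes tested. Ppp3cb, which encodes a catalytic subunit of calcineurin, rose in old mice, with 10.9, 10.9, 10.8 and 11.2 CPM in young 14C, 18C, 23C and 29C and 25.8, 20.7 and 22.5 CPM in old 2posI, 3posI and 4posI. For Ppp3cb the log2 fold change was 1.07 (SE 0.13, edgeR adjusted p = 0.0236), and 1.14 (edgeR adjusted p = 0.0225) without 3posI. The median over the 16 genes was 0.08.

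Of 16 genes that signals from these receptors are known to induce, 0 passed (edgeR). An unadjusted p under 0.05 was found for 2, both with a lower fitted value, against 18.9% of all genes. In 12 the fitted value was lower in old mice (median log2 fold change -0.39), while 48.8% of all genes had a higher one. Nlrp3, which encodes an inflammasome sensor, had 204 to 224 CPM in young and 77.3, 110 and 142 CPM in old 2posI, 3posI and 4posI (log2 fold change -0.95, SE 0.20, edgeR adjusted p = 0.066). The cytokine genes Il23a and Il12b were low, at 1.75 to 3.51 and 6.16 to 8.97 CPM in young mice and 0.39 to 1.66 and 1.01 to 5.42 CPM in old mice. Neither overlapped between the ages, with log2 fold changes of -1.43 (edgeR adjusted p = 0.203) and -0.92 (edgeR adjusted p = 0.338).

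Among 43 other C-type lectin receptor genes, 31 were tested and 0 passed (edgeR), with a median log2 fold change of 0.99. An unadjusted p under 0.05 was found for 12, against 18.9% of all genes, and 10 of the 12 had a higher fitted value. Next to Klrb1b, the smallest p values were those of Cd209g, a relative of DC-SIGN (0.24 to 1.12 CPM in young and 1.90 to 6.88 CPM in old mice, edgeR adjusted p = 0.079), and of Klrk1, the gene of NKG2D (at most 0.27 CPM in young and 0.60 to 5.85 CPM in old mice, edgeR adjusted p = 0.0974). Without 3posI the median over the list was 0.52 and 1 of 30 genes passed, Clec1a (log2 fold change 1.47, edgeR adjusted p = 0.0452), a neighbour of Clec7a. Of all genes, 159 of 17375 passed in that fit. The value of Klrk1 was then 2.83 (edgeR adjusted p = 0.226). Within the same 2 stretches of chromosome 6, Cd69, a lectin-like activation marker of lymphocytes, had 21.3 to 37.7 TPM in young mice and 9.91 to 25.8 TPM in old mice (log2 fold change -0.54, edgeR adjusted p = 0.401). Clec4a4, Clec4b1 and Clec9a stayed under 1 TPM in all libraries, Clec4b2 was listed at 0 in all of them, and Clec1a and Clec1b reached at most 5.03 and 3.34 TPM.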

How the data were processed

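Bulk RNA-seq of sorted microglia was measured in 7 libraries, 3 Old and 4 Young. Age and animal code came from the labels, and sex, day and the Bodipy gate from the study's methods. The authors prepared libraries with Smart-seq2, trimmed and aligned the reads (STAR, GRCm38) and used RSEM for GENCODE m15 genes (versions of both not given in the sources used here). They deposited expected counts, without normalization, and TPM and FPKM values, scaled within each library, the last not used here. Without molecular identifiers, PCR copies count as reads.

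Expected counts were rounded. A count above 10 in any library was required (18173 genes), and 614 on X, Y or the mitochondrial genome were removed. edgeR 4.0.16 in R 4.3.3 was run with TMM factors, age as the only term and its quasi-likelihood test, and calls have a Benjamini-Hochberg adjusted p under 0.05. The biological coefficient of variation was 37.2%, and the fit was tested on simulated data. Positions came from GENCODE vM21, which holds 50462 of the 50686 identifiers. TPM was tested with limma 3.58.1 on log2(TPM + 1) as an alternative, and DESeq2 1.42.0, limma-voom, other factors and filters and each library left out were others. The 10 genes and all lists were chosen with earlier results of these data known. All 10 were named, with the called genes of each list or else its 3 smallest p, and Fcer1g, Tyrobp, Syk and Card9, except 1 gene that is not reported here. Genes most like another were those with the smallest mean absolute difference of centred log2 CPM. For 1 value, an exact permutation test of 3 against 4 libraries cannot give a p below 0.0286.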

Additional observations from a re-analysis of the deposited data

Results flagged for a closer look

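In 29 named genes, the 4 young libraries were searched for 1 far from the others by Dixon's test at the 95% level, and 3 were marked, where chance would give about 1.45. In Clec2d the gap of young 23C (0.43 CPM) to the nearest of the others (3.88 to 4.39 CPM) was 0.871 of the range, and without 23C the log2 fold change of Clec2d was -0.89 (edgeR adjusted p = 0.193). In Ptpn11 it was again 23C, at 47.3 CPM against 26.8 to 30.0 CPM, with a ratio of 0.846. In Il12b it was 29C, at 8.97 CPM against 6.16 to 6.49 CPM, with a ratio of 0.883. Groups of 3 old libraries were not searched in this way, so 3posI was not judged by this test.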

How the results depend on the processing

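Of the 10 genes, 0 passed in every alternative tried and without each library in turn, except in DESeq2 (3 called) and at an adjusted p of 0.1 (1 called, Clec7a, in edgeR). Of 190 log2 fold changes refitted, 184 kept their direction and their side of the threshold, 2 had no adjusted p (Clec4d and Clec4e in DESeq2), 3 passed in DESeq2 and 1 reversed, Clec5a without 2posI (-0.0563, and up to 0.3484 without 3posI). The number with an unadjusted p under 0.05 was 6, and 2 without 3posI, a setting chosen after seeing the data, as were the count of separated genes and the values of other lists without it. For the lists without 3posI, the number with an unadjusted p under 0.05 rose from 2 to 6 of 16 induced genes, all lower in old mice, and from 4 to 6 of 16 in the calcium and NFAT branch. The share of all genes with such a p was not counted without 3posI, so these counts have no background beside them. The 141 genes called in all (70.9% higher in old mice) became 318 with sample quality weights, 1399 in DESeq2 (53.2% higher), 288 without a count filter (54.5%), 228 with at least 1 CPM in 3 libraries, 64 on log2(TPM + 1) (50% higher), 71 on log2(TPM + 0.1) (47.9%) and 637 at an adjusted p of 0.1. With 1 library left out they ranged from 1 to 159. The effective-length offset gave 196 calls (58.2% higher). The causes were not tested. No paired analysis was possible because the labels give each mouse its own code and no number shared between the ages. Members with few counts, such as Clec2d in 23C (22.08), are the least precise.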
